A study of Mus musculus with 12 samples.

Results

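The genes described here are 10 secreted proteins of bone morphogenetic protein (BMP) signalling in mouse embryonic fibroblasts (MEFs). They are the ligands Bmp2, Bmp4, Bmp5, Bmp6, Bmp7, Gdf5, Gdf6 and Gdf10 and the antagonists Grem1 (gremlin 1) and Nog (noggin). They were chosen by name, as all non-control probes that carry one of these 10 gene names, which gave 14 probes of the 41174 on the array. All 10 genes were kept among the 20836 genes tested, and 13 of the 14 probes were kept.

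RNA was measured on 12 one-colour Agilent arrays, 3 for each of 4 groups. GR-C3 Dex cells were homozygous GR-C3 knockin MEFs given 100 nM dexamethasone (Dex), a synthetic glucocorticoid, for 6 hours, and GR-C3 vehicle cells were the same MEFs given vehicle for 6 hours. WT Dex and WT vehicle cells were wild-type MEFs treated in the same 2 ways. All MEFs came from embryos of day 12.5 on a C57Bl/6 background. In the knockin, the glucocorticoid receptor gene keeps the start codon of the GR-C3 protein and has ATC in place of ATG at the start codons of the other translational isoforms. Whether any probe covers the edited bases was not tested. The knockin line goes back to an embryonic stem cell clone, and the hygromycin cassette was removed with Flp-deleter mice. The labels call the arrays of a group biological replicates but do not give the number of embryos behind them. The p-values therefore measure the spread between these samples, and genotype and MEF preparation cannot be told apart.

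BMPs and growth and differentiation factors (GDFs) are secreted dimers that bind pairs of type I and type II serine-threonine kinase receptors. In the BMP branch, the receptors phosphorylate Smad1, Smad5 and Smad9, which enter the nucleus with Smad4 and switch on targets such as the Id genes. Not every ligand of the family need act through this branch, and which of those named here do was not examined. Noggin and gremlins bind the ligands outside the cell and keep them from their receptors. In the embryo these proteins pattern limbs, joints, cartilage and bone, and embryonic fibroblasts include mesenchymal cells of those tissues.

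Of the 10 genes, 5 have an entry in the RefSeq promoter table (build GRCm38.p6), which holds 250 bases before and 50 after each transcript start. The 3 genes among them that were lower in GR-C3 cells under both treatments are shown here, as the 250 bases before the start, so that their different base make-up can be seen. CG dinucleotides are in capitals. Gdf10 lies at chr14:33923337-33923586 on the plus strand, Bmp5 at chr9:75775115-75775364 on the plus strand and Grem1 at chr2:113758649-113758898 on the minus strand.
Gdf10: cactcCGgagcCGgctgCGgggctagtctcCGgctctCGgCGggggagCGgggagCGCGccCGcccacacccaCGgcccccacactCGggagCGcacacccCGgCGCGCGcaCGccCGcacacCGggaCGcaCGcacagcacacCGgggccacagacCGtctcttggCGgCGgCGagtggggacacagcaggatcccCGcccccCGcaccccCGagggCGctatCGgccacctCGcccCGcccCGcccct
Bmp5: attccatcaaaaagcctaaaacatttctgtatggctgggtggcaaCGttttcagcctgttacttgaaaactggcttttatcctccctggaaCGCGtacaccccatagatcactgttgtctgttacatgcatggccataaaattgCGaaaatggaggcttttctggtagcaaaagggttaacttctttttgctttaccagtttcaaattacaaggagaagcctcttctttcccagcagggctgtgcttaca
Grem1: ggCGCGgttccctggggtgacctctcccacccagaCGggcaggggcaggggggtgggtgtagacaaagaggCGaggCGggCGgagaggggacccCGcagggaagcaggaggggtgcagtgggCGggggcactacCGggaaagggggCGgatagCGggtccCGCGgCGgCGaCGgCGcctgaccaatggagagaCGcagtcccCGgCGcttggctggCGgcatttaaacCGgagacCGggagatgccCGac
The printed stretch held 35 CG dinucleotides in Gdf10, 24 in Grem1 and 4 in Bmp5. In the whole 300-base window, Gdf10 had 42, against a median of 7 over the 32851 promoters of the table, and 3.03% of those promoters had as many or more. The GC content of the 5 promoters ran from 43.3% in Bmp5 to 77.3% in Gdf10, against a median of 52.7% over all promoters. The short motif bound by 1 unit of the receptor dimer, AGAACA or its reverse complement TGTTCT, was searched on both strands. It was found in 0 of the 5 windows and in 19.0% of all promoters. The full glucocorticoid response element, AGAACA and TGTTCT separated by any 3 bases (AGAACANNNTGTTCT), was found in 0 of the 5 windows and in 0.00913% of all promoters, and each full element holds 2 short motifs. These letters being absent from the windows says nothing about binding elsewhere.

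A level is the log2 signal of a probe minus the 75th percentile of its array, so that 0 is the 75th percentile. Probes differ in how well they bind, so levels are compared between arrays and not between genes. A difference was called when its limma p-value, adjusted over all 20836 genes by the Benjamini-Hochberg method, was under 0.05. One array, WT vehicle replicate 1, was unlike the other arrays of its group. Over all genes its levels correlated at 0.983 with each of the other WT vehicle arrays, which correlated at 0.998 with each other, and at 0.987 to 0.989 with the WT Dex arrays. It was also alone on its slide and on its scan day. For 7 of the 10 genes its level was nearer to the mean of the WT Dex arrays than to that of the other WT vehicle arrays. Gdf10 is among them, but both of its means were 3.22, so its nearness to either says little. The share over all genes was not examined. Results are therefore given with all 12 arrays, with the 11 arrays without it, or with both. Where a passage names neither, all 12 were used.

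The 12 arrays lay on 4 slides. With slide as a block, the Dex change in WT compares WT Dex replicate 1 with WT vehicle replicates 2 and 3. WT vehicle replicate 1, alone on its slide, has no part in it. The blocked Dex change in GR-C3 compares the GR-C3 Dex arrays with GR-C3 vehicle replicate 3. The 1 slide with both genotypes held GR-C3 vehicle and WT Dex arrays. Genotype differences with slide as a block rest on that slide and on these Dex changes. All 9 fibroblast markers examined, such as Col1a1, Pdgfra and Thy1, were well above background on all 12 arrays. Of the known glucocorticoid-induced genes Fkbp5, Tsc22d3, Per1, Klf9, Sgk1, Mt2 and Dusp1, 6 were called higher with Dex in GR-C3 with 11 arrays (3.47% of all genes called). Dusp1 was not called there, at 2.73 to 2.81 with Dex and 2.51 to 2.66 with vehicle. In WT all 7 were called higher with 11 arrays (12.2% of all genes). With 12 arrays 0 were called in either genotype. WT vehicle arrays had Fkbp5 at -2.74, -2.64 and 1.51, and WT Dex arrays at 1.89 to 2.15. For Mt2 they were 4.06, 4.08 and 7.55, against 7.59 to 8.04. The median change of these genes in WT was 1.45 with 12 arrays and 2.14 without WT vehicle replicate 1. The median genotype difference over all genes was 0.11 under vehicle and 0.13 under Dex on the log2 scale, and quantile normalization lowered these medians to 0.06 and 0.05.

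**Figure D1:**
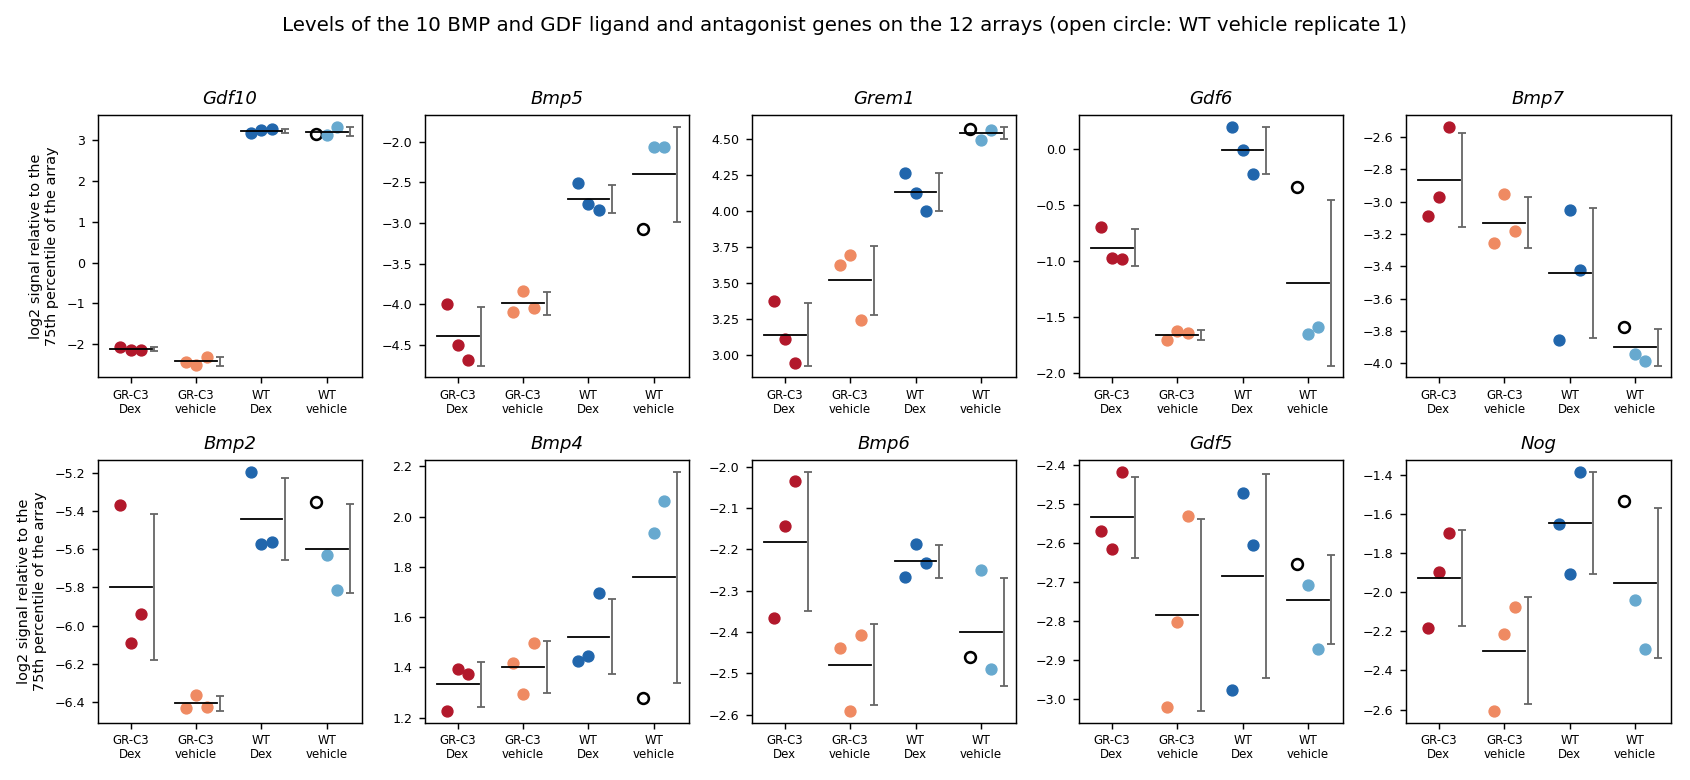
Levels of the 10 genes on the 12 arrays, as log2 signal with each array's 75th percentile at 0; each point is 1 array, horizontal lines are group means and bars to their right are SDs (n = 3). Gdf10 lies between -2.51 and -2.05 on the 6 GR-C3 arrays and between 3.12 and 3.32 on the 6 WT arrays, and the open circle of WT vehicle replicate 1 sits apart from its group for Gdf6, Bmp4 and Bmp5.

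GR-C3 and WT cells differed in 5 of the 10 genes under vehicle with 12 arrays, against 24.8% of all genes called. Of these, 4 were lower in GR-C3, against 10.2% of all genes, and 1 was higher, against 14.6%. Under Dex they differed in 4 of the 10, against 29.6% of all genes called. All 4 were lower in GR-C3, against 12.1% of all genes, and 0 were higher, against 17.5%. With quantile normalization the split of all genes called under Dex was 3074 higher and 3167 lower, against 3655 and 2520 here. Gdf10, Bmp5 and Grem1 were lower in GR-C3 under both treatments. Bmp2 was lower and Bmp7 higher under vehicle, and Gdf6 was lower under Dex. With 11 arrays, 5 of the 10 were lower under vehicle (11.1% of all genes) and 1 was higher (16.2%), which makes 6 called, against 27.3% of all genes. Under Dex, 4 were lower (16.1% of all genes) and 1 was higher (24.6%), which makes 5 called, against 40.7% of all genes. The values of GR-C3 and WT arrays did not overlap for 5 of the 10 genes under vehicle, against 43.3% of all genes, and for 5 of the 10 under Dex, against 50.3% of all genes. Without WT vehicle replicate 1 it was 6 of the 10 under vehicle, against 64.4% of all genes. The median difference of the 10 genes was -0.41 under vehicle and -0.32 under Dex.

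Gdf10, also known as BMP-3b, is a ligand studied mostly in the skeleton and brain. Its level was -2.05, -2.13 and -2.14 on the GR-C3 Dex arrays, against 3.17, 3.24 and 3.26 on the WT Dex arrays. Under vehicle it was -2.43, -2.51 and -2.31 in GR-C3, against 3.15, 3.12 and 3.32 in WT. Every GR-C3 array lay far below every WT array, and all 12 arrays were well above background. The difference was -5.33 ± 0.096 under Dex, 40.2-fold lower in GR-C3 (SE, adjusted p = 2.298e-10), and -5.61 ± 0.096 under vehicle, 49.0-fold lower (adjusted p = 1.306e-10). In both comparisons it had the smallest p-value of all 20836 genes and ranked 5th among the decreases by size. In bulk RNA, fewer cells that make a transcript and less of it in each cell cannot be told apart. Under the alternatives tried the difference stayed between -5.52 and -4.29 under Dex and between -5.77 and -5.11 under vehicle, and it was called under all of them.

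Markers of chondrocytes, the cells of cartilage, moved with Gdf10. The summed signal of the 7 chondrocyte markers, relative to the 75th percentile, was 6.81 to 7.08 on GR-C3 Dex arrays and 51.5 to 60.8 on WT Dex arrays. Under vehicle it was 6.70 to 6.95 in GR-C3 and 46.5 to 53.3 in WT. Of these 7 markers, 6 were well above background on all 12 arrays, and Matn1 was above it on 2. Most of the summed signal is Col2a1, the main collagen of cartilage. Col2a1 averaged 2.12 in GR-C3 Dex cells and 5.57 in WT Dex cells, and 2.17 in GR-C3 vehicle cells and 5.38 in WT vehicle cells. Comp, a cartilage matrix protein, averaged -0.27 in GR-C3 Dex cells and 1.47 in WT Dex cells. Sox9, the transcription factor of chondrocyte fate, averaged 0.41 in GR-C3 Dex cells and 1.80 in WT Dex cells. Acan, also of this list, differed less, at -2.68 in GR-C3 Dex cells and -1.81 in WT Dex cells. The part of these markers in the Gdf10 result was not tested. The 3 genes whose level correlated best with Gdf10 over the 12 arrays were Rflnb (r = 0.997), Col2a1 (r = 0.997) and Barx1 (r = 0.996), a description in which the 12 points fall into 2 clusters by genotype.

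**Figure D2:**
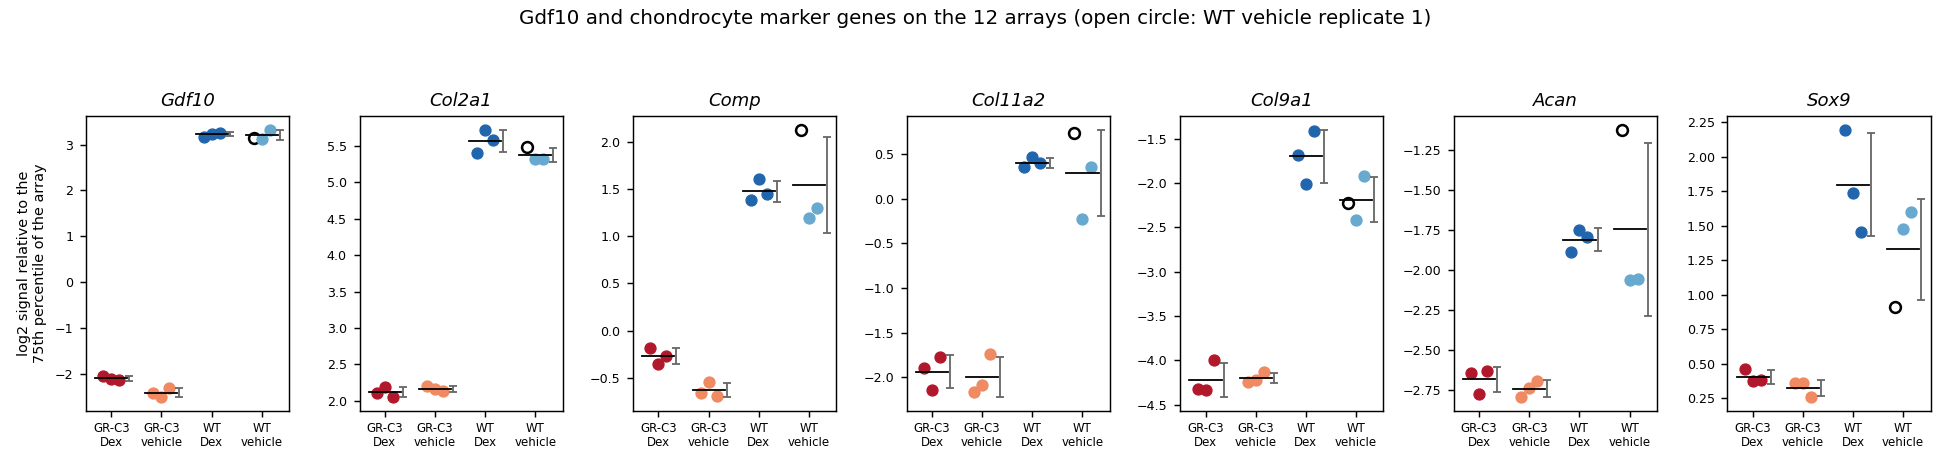
Levels of Gdf10 and of 6 chondrocyte markers on the 12 arrays, as log2 signal with each array's 75th percentile at 0; points are arrays, lines are group means and bars are SDs (n = 3). Gdf10 averages -2.11 in GR-C3 Dex cells and 3.22 in WT Dex cells, and Col2a1 averages 2.12 in GR-C3 Dex cells and 5.57 in WT Dex cells.

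Other marker lists moved too. The summed osteoblast signal was 133 to 143 on GR-C3 Dex arrays and 188 to 256 on WT Dex arrays, and 130 to 144 on GR-C3 vehicle arrays and 209 to 239 on WT vehicle arrays. Nearly all of it is Spp1, and the list did not move as 1: Bglap averaged -3.63 in GR-C3 Dex cells and -1.83 in WT Dex cells, whereas Alpl averaged -2.93 in GR-C3 Dex cells and -3.70 in WT Dex cells. The summed skeletal muscle signal was 69.2 to 78.6 on GR-C3 Dex arrays and 42.9 to 52.9 on WT Dex arrays, and 61.5 to 75.9 on GR-C3 vehicle arrays and 37.4 to 44.9 on WT vehicle arrays. Nearly all of it is Actc1, at 6.14 in GR-C3 Dex cells and 5.61 in WT Dex cells. The other markers of this list also averaged higher in GR-C3. Myog did so by little, at -3.51 in GR-C3 Dex cells and -3.72 in WT Dex cells, and Myh3 was well above background on 8 arrays. The summed neural and Schwann cell signal was 5.68 to 6.17 on GR-C3 Dex arrays and 3.55 to 4.30 on WT Dex arrays, and 4.38 to 4.71 on GR-C3 vehicle arrays and 2.88 to 3.64 on WT vehicle arrays. Most of it is Tubb3, at 2.21 in GR-C3 Dex cells and 1.71 in WT Dex cells. The other markers of this list also averaged higher in GR-C3, with Elavl3 well above background on 5 arrays. Epithelial signal summed to 1.59 to 1.71 on GR-C3 Dex arrays and 0.469 to 0.624 on WT Dex arrays, and to 2.02 to 2.44 on GR-C3 vehicle arrays and 0.565 to 0.715 on WT vehicle arrays, with Cdh1 and Esrp1 not well above background on any array. Krt18 carried this difference, and Krt14 ran the other way under Dex, at -3.43 in GR-C3 and -2.55 in WT. Endothelial signal summed to 0.545 to 0.559 on GR-C3 Dex arrays and 0.207 to 0.241 on WT Dex arrays, and to 0.390 to 0.417 on GR-C3 vehicle arrays and 0.236 to 0.315 on WT vehicle arrays, with Cdh5 not well above background on any array and Pecam1 above it on 1. Kdr carried this difference, and Tek averaged -3.48 in GR-C3 vehicle cells and -3.28 in WT vehicle cells. Macrophage signal summed to 5.07 to 5.50 on GR-C3 Dex arrays and 6.52 to 7.49 on WT Dex arrays, and to 6.05 to 6.50 on GR-C3 vehicle arrays and 6.88 to 8.50 on WT vehicle arrays. Most of it is Lyz2. Cd68, Adgre1 and Ptprc also averaged lower in GR-C3 under both treatments. Csf1r ran the other way, at -2.91 in GR-C3 Dex cells and -3.12 in WT Dex cells. Cd14 was higher in GR-C3 under vehicle, at -1.44 against -1.62. The part of these lists in the genotype differences was not tested.

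Gdf6 and Gdf5 are closely related ligands that act in joint formation. Gdf6 was at -0.69, -0.97 and -0.98 in GR-C3 Dex cells and at 0.20, -0.01 and -0.23 in WT Dex cells. All GR-C3 Dex values lay below all WT Dex values, a difference of -0.87 ± 0.29 with 12 arrays (adjusted p = 0.04194) and -0.87 ± 0.12 with 11 (adjusted p = 0.0004185). With 12 arrays this call was lost without any 1 of the WT Dex, GR-C3 vehicle or GR-C3 Dex arrays, and its adjusted p ran from 0.0004185 to 0.199 over the alternatives. With 11 arrays it held under all 14 alternatives tried, with differences of -0.97 to -0.76. Under vehicle, Gdf6 was at -1.70, -1.62 and -1.64 in GR-C3 cells, against -0.34, -1.65 and -1.58 in WT cells. The 1 high WT value is that of replicate 1. The difference under vehicle was -0.46 with 12 arrays, with a 95% interval of -1.10 to 0.17, and -0.04 with 11, with an interval of -0.34 to 0.26. Gdf5 lay between -3.02 and -2.42 on all GR-C3 arrays and between -2.98 and -2.47 on all WT arrays. Its difference of 0.15 under Dex had an interval of -0.20 to 0.50, and that of -0.04 under vehicle an interval of -0.39 to 0.31.

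Bmp5, Bmp6 and Bmp7 form a subgroup of the ligands by sequence. Bmp5, which shapes cartilage and bone in the mouse, was at -3.99, -4.50 and -4.69 in GR-C3 Dex cells and at -2.51, -2.76 and -2.85 in WT Dex cells. Under vehicle it was at -4.09, -3.83 and -4.04 in GR-C3 cells, against -3.08, -2.07 and -2.06 in WT cells. No GR-C3 value reached a WT value. The difference was -1.69 ± 0.26 under Dex (adjusted p = 0.0009662), 3.22-fold lower in GR-C3, and -1.58 ± 0.26 under vehicle (adjusted p = 0.00153), 3.00-fold lower. Without WT vehicle replicate 1, the lowest WT array, the difference under vehicle was -1.92 ± 0.19 (adjusted p = 7.584e-05). A second Bmp5 probe was also lower in GR-C3, by -1.98 ± 0.43 under Dex and -1.83 ± 0.43 under vehicle, with 1 of 3 GR-C3 Dex arrays and 2 of 3 GR-C3 vehicle arrays above background. The other Bmp5 probe was not well above background on any array.

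Bmp7, a ligand needed for kidney and eye development, ran the other way. It was at -3.26, -2.95 and -3.18 in GR-C3 vehicle cells, against -3.77, -3.95 and -3.99 in WT vehicle cells, with no overlap. The difference under vehicle was 0.77 ± 0.20 (adjusted p = 0.01808), 1.71-fold higher in GR-C3. This call was lost without WT vehicle replicate 3 (adjusted p = 0.0557) and without GR-C3 vehicle replicate 2 (adjusted p = 0.0732), within a range of 0.008182 to 0.7395 over the alternatives. Under Dex the values were -3.09, -2.97 and -2.54 in GR-C3 cells and -3.85, -3.05 and -3.42 in WT cells, and the groups overlapped. That difference was 0.58 ± 0.20, with an adjusted p of 0.0517 with 12 arrays and 0.04538 with 11. The 11-array call held under 3 of 14 alternatives and was lost, for example, with quantile normalization (adjusted p = 0.0552), within a range of 0.01155 to 0.1543. In a separate limma fit of every kept probe, adjusted over 30934 probes, a second Bmp7 probe was called higher in GR-C3 under both treatments. Its differences were 0.87 ± 0.14 under Dex (adjusted p = 0.001282) and 0.66 ± 0.14 under vehicle (adjusted p = 0.006877). Bmp6, known for its control of iron balance through the liver, lay between -2.59 and -2.03 on GR-C3 arrays and between -2.49 and -2.19 on WT arrays. Its difference was 0.05 under Dex, with an interval of -0.20 to 0.30, and -0.08 under vehicle, with an interval of -0.33 to 0.17.

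Bmp2 and Bmp4, near relatives that drive bone formation and early mesoderm, had smaller or less certain differences. Bmp4 was at 1.23, 1.39 and 1.37 in GR-C3 Dex cells and at 1.43, 1.45 and 1.69 in WT Dex cells, a difference of -0.19 ± 0.18 (adjusted p = 0.4435). Under vehicle it was at 1.42, 1.29 and 1.499 in GR-C3 cells, against 1.28, 1.94 and 2.06 in WT cells, where 1.28 is replicate 1. The difference under vehicle was -0.35 ± 0.18 with 12 arrays (adjusted p = 0.1804) and -0.59 ± 0.11 with 11 (adjusted p = 0.004292). The second of these was lost when WT vehicle replicate 3 was also left out, which leaves 1 WT vehicle array, with an adjusted p of 0.05569.

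Bmp2 was near the lower end of detection. It was at -6.44, -6.37 and -6.43 in GR-C3 vehicle cells, 1 of them not well above background, against -5.35, -5.63 and -5.81 in WT vehicle cells. The difference was -0.81 ± 0.19 with 12 arrays (adjusted p = 0.01067) and -0.69 ± 0.20 with 11 (adjusted p = 0.02914). The 11-array call was lost under 6 of 14 alternatives, among them those that also left out any 1 GR-C3 vehicle array (adjusted p = 0.06278 to 0.0643) or any 1 further WT vehicle array (0.09306 and 0.1703), within a range of 0.005888 to 0.9264. With normexp background correction in place of the processed signal the estimate was 0.01 with 12 arrays (adjusted p = 0.9667) and -0.02 with 11 (adjusted p = 0.9264). Under Dex it was at -5.37, -6.09 and -5.94 in GR-C3 cells and at -5.19, -5.57 and -5.56 in WT cells, which overlapped.

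Grem1, an antagonist of BMP2, BMP4 and BMP7, was at 3.37, 3.11 and 2.94 in GR-C3 Dex cells and at 4.27, 4.13 and 4.003 in WT Dex cells. Under vehicle it was at 3.62, 3.69 and 3.25 in GR-C3 cells, against 4.57, 4.49 and 4.57 in WT cells. The groups did not overlap under either treatment. The difference was -0.99 ± 0.15 under Dex (adjusted p = 0.0006475), 1.99-fold lower in GR-C3, and -1.02 ± 0.15 under vehicle (adjusted p = 0.0005619), 2.03-fold lower. Noggin had no called difference. It was at -2.19, -1.90 and -1.70 in GR-C3 Dex cells and at -1.65, -1.91 and -1.39 in WT Dex cells, a difference of -0.28 with an interval of -0.77 to 0.21. Under vehicle its difference was -0.34, with an interval of -0.83 to 0.14.

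With slide as a block, Gdf10 stayed lower in GR-C3, by -5.52 under Dex (adjusted p = 1.8e-05) and -5.77 under vehicle (adjusted p = 1.676e-05). Bmp5 did too, by -1.51 (adjusted p = 0.02117) and -1.60 (adjusted p = 0.03014). Gdf6 was lower under Dex by -0.78 (adjusted p = 0.03608), and Bmp4 was lower under vehicle by -0.79 (adjusted p = 0.04657). The calls of Grem1 were lost, at -0.51 under Dex (adjusted p = 0.1549) and -0.67 under vehicle (adjusted p = 0.1211). Those of Bmp7, at 0.24 (adjusted p = 0.7395), and Bmp2, at -0.30 (adjusted p = 0.679), were lost under vehicle.

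**Figure D3:**
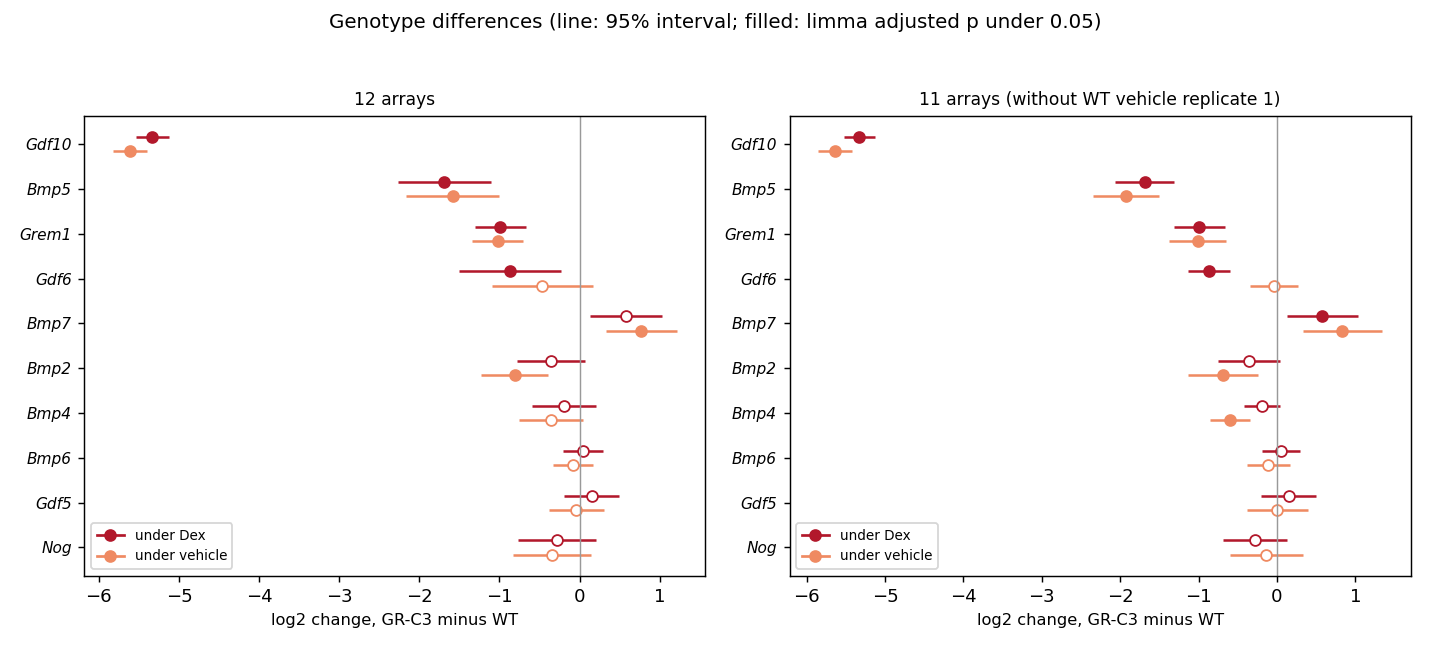
Log2 differences, GR-C3 minus WT, of the 10 genes under Dex and under vehicle, with 12 arrays on the left and 11 on the right; points are limma estimates, lines are 95% intervals and filled points have an adjusted p under 0.05. Gdf10 stands at -5.33 under Dex and -5.61 under vehicle, with Bmp5 and Grem1 also lower in GR-C3 under both treatments.

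Genes with a pattern like those of the other called members were found by the same measure over 12 arrays. They were Hs6st2 (r = 0.983), Dtd1 (0.982) and Fam241b (0.980) for Bmp5, and Mycbpap (0.965), Dgkg (0.965) and Spink5 (0.965) for Grem1. For Gdf6 they were Fam160a1 (r = 0.983), Niban1 (0.980) and Ppl (0.979). For Bmp7 they were Tubb2a (r = 0.963), Scn4a (0.959) and Apc2 (0.957), for Bmp2 Sdf2l1 (0.950), Mrc1 (0.936) and Sox5 (0.935), and for Bmp4 Cmpk2 (0.946), Gprin3 (0.937) and Nlgn2 (0.936). The genes and the members share the same 12 arrays of 2 genotypes.

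Gdf6 had the lowest p-value of the 10 genes for Dex in both genotypes of the 11-array fit. In GR-C3, Gdf6 was at -0.69, -0.97 and -0.98 with Dex, against -1.70, -1.62 and -1.64 with vehicle, which do not overlap. This change was 0.77, 1.71-fold higher, with a standard error of 0.29 and an adjusted p of 0.3441 with 12 arrays, and 0.12 and 0.00762 with 11. In WT it was at 0.20, -0.01 and -0.23 with Dex, against -0.34, -1.65 and -1.58 with vehicle. All Dex values exceeded all vehicle values, and replicate 1 at -0.34 lay nearer to the Dex values. With 12 arrays the change in WT was 1.18 ± 0.29, with an adjusted p of 0.1199, and with 11 it was 1.60 ± 0.13 (adjusted p = 5.528e-05), 3.04-fold higher. The 11-array calls of Gdf6 held under all 14 further alternatives, at 0.68 to 0.82 in GR-C3 and 1.46 to 1.71 in WT. With slide as a block, the change was 0.76 in GR-C3, which was not called, and 1.81 in WT, which was called. The GR-C3 value rests on vehicle replicate 3 alone. The WT value rests on Dex replicate 1 alone, against WT vehicle replicates 2 and 3, and so also leaves out WT vehicle replicate 1.

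The GR-C3 response of Gdf6 minus its WT response was -0.40 ± 0.40 with 12 arrays (adjusted p = 0.9168). With 11 arrays it was -0.83 ± 0.18 (adjusted p = 0.06615), which was not called, although 4 of the 14 alternatives of that fit called it, with adjusted p-values of 0.03742 to 0.2805 over all of them. Of the 10 genes, 0 had a called interaction with 12 arrays, and 0 did at an unadjusted p under 0.05 by limma. The share of all genes called was 0%, and 1282 genes had an unadjusted p under 0.05. With 11 arrays 0 of the 10 were called, against 1.14% of all genes, and 3 of the 10 had an unadjusted p under 0.05, against 14.3% of all genes.

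Across the 10 genes, limma called 0 Dex changes with 12 arrays in GR-C3, against 0.101% of all genes, and 0 in WT, against 0.12% of all genes. At an unadjusted p under 0.05 there were 5 of the 10 in GR-C3, against 11.8% of all genes, and 3 in WT, against 16.7%. The Dex and vehicle arrays did not overlap for 4 of the 10 genes in GR-C3, against 28.9% of all genes, and for 2 in WT, against 14.9%. With 11 arrays, Gdf6 was the 1 gene called in GR-C3, against 3.47% of all genes, and Gdf6 and Bmp4 were called in WT, against 12.2% of all genes. In that fit 7 of the 10 did not overlap in WT, against 42.8% of all genes.

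Bmp4 changed by -0.07 with Dex in GR-C3, with an interval of -0.47 to 0.33. It was lower with Dex in WT cells when replicate 1 was left out, at 1.43, 1.45 and 1.69 with Dex against 1.94 and 2.06 with vehicle. The change was -0.48 ± 0.11 (adjusted p = 0.02431) and was lost when a second WT vehicle array was left out, with adjusted p-values up to 0.2053 over the alternatives. With all 12 arrays it was -0.24 ± 0.18 (adjusted p = 0.5372). Bmp5 changed by -0.41 ± 0.26 in GR-C3 and by -0.30 ± 0.26 in WT with 12 arrays, and by -0.64 ± 0.19 in WT with 11 (adjusted p = 0.05513). Grem1 changed by -0.38 ± 0.15 in GR-C3 (adjusted p = 0.3586) and by -0.41 ± 0.15 in WT (adjusted p = 0.2098).

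Gdf10, which of the 10 differed most by genotype, changed by 0.31 ± 0.096 with Dex in GR-C3 (adjusted p = 0.2453) and by 0.02 ± 0.096 in WT (adjusted p = 0.9292). Bmp2 was -5.37, -6.09 and -5.94 with Dex in GR-C3, above the vehicle values of -6.44, -6.37 and -6.43, but the change of 0.61 ± 0.19 was not called (adjusted p = 0.2478). The other changes ran from 0.25 in Gdf5 to 0.37 in Nog in GR-C3 and from 0.06 in Gdf5 to 0.46 in Bmp7 in WT, all with 12 arrays and none called. For Bmp7 in WT the 2 probes differed, at 0.46 ± 0.20 for the brighter and -0.08 ± 0.14 for the dimmer.

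**Figure D4:**
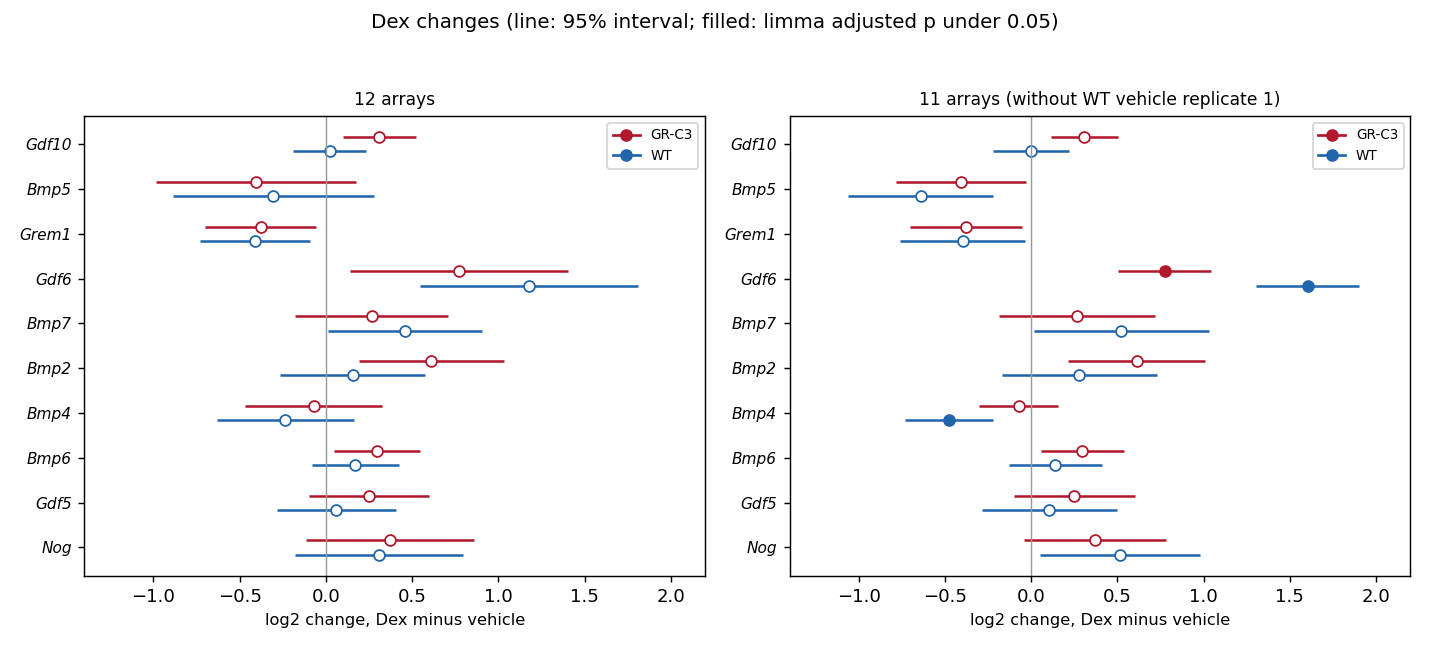
Log2 changes, Dex minus vehicle, of the 10 genes in GR-C3 and WT cells, with 12 arrays on the left and 11 on the right; points are limma estimates, lines are 95% intervals and filled points have an adjusted p under 0.05. With 11 arrays Gdf6 is called in GR-C3 at 0.77 and in WT at 1.60, and Bmp4 is called in WT at -0.48.

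The other genes of the pathway were read from the same fits, by role, and all genes tested had at least 1 array above background in every group. The listed genes that were not tested had no probe kept. Of 13 further ligands, 9 were tested. In GR-C3 against WT with 12 arrays, 1 was higher and 2 were lower under each treatment, with a median difference of -0.20 under Dex and -0.31 under vehicle. Over all genes, 17.5% were higher and 12.1% lower under Dex, and 14.6% and 10.2% under vehicle. Mstn (myostatin, which restrains muscle growth) had levels of -6.92 to -6.15 in GR-C3 Dex cells and -2.94 to -2.52 in WT Dex cells. It was lower in GR-C3 by -3.69 ± 0.25 under Dex (adjusted p = 2.65e-06) and -3.71 ± 0.25 under vehicle (adjusted p = 2.793e-06), with 2 of 3 arrays of each GR-C3 group above background. Gdf1 was lower, by -0.90 under Dex and -0.82 under vehicle, and Bmp8b was higher, by 0.96 under Dex and 1.03 under vehicle.

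Bmp8a had a larger Dex change than any of the 10 members in the 11-array fit. It rose by 0.92 ± 0.08 in GR-C3 (adjusted p = 0.0001995) and by 2.48 ± 0.09 in WT (adjusted p = 2.1e-07), and the difference between the responses, -1.55 ± 0.12, was called (adjusted p = 0.0004897). With 12 arrays, 0 of these 9 ligands was called for Dex in either genotype. WT vehicle replicate 1 had a Bmp8a level of 0.16, and the other WT vehicle arrays lay between -2.82 and -2.72. Gdf15, a stress-induced family member, fell by 0.51 in GR-C3 and by 0.68 in WT with 11 arrays.

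Of 17 other antagonists and modulators, 15 were tested, and 3 were higher and 3 lower in GR-C3 under each treatment with 12 arrays. The shares of all genes were 17.5% higher and 12.1% lower under Dex, and 14.6% and 10.2% under vehicle. Sostdc1, an antagonist also known as USAG-1 or ectodin, was higher by 2.49 ± 0.12 under Dex (adjusted p = 3.323e-07) and 1.64 ± 0.12 under vehicle (adjusted p = 4.929e-06). Its levels were 0.71 to 0.85 in GR-C3 Dex cells and -1.94 to -1.501 in WT Dex cells. Chrdl1, a chordin-like antagonist, was lower by -0.93 under Dex and -1.15 under vehicle, and Nbl1 by -0.93 and -0.87. Sostdc1 rose with Dex in GR-C3 by 0.60 ± 0.11 (adjusted p = 0.02031), and Fst (follistatin) rose in WT by 0.97 ± 0.16 (adjusted p = 0.003718), both with 11 arrays. With 12 arrays, 0 of the 15 were called for Dex in either genotype. Fst then overlapped in WT, at 0.95 to 3.00 with vehicle and 1.79 to 2.27 with Dex, and the value of 3.00 is that of replicate 1.

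Of the 6 proteases that process BMPs or cleave chordin, 5 were tested. Pcsk6, a proprotein convertase, was lower in GR-C3 by -1.88 ± 0.11 under Dex (adjusted p = 1.162e-06) and -1.85 ± 0.11 under vehicle (adjusted p = 1.119e-06). Tll1, a tolloid protease, was higher, by 0.82 under Dex and 0.55 under vehicle. Bmp1, which is a protease of that family in spite of its name, was higher by 0.50 under vehicle (adjusted p = 0.01554).

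Of 7 receptors, all tested, 2 were higher and 0 lower in GR-C3 under each treatment with 12 arrays. Among all genes, 17.5% were higher and 12.1% lower under Dex, and 14.6% and 10.2% under vehicle. The type I receptor Bmpr1b, which binds GDF5 and GDF6, was at -3.07 to -2.71 in GR-C3 Dex cells and at -4.89 to -4.26 in WT Dex cells. It was higher by 1.61 ± 0.20 under Dex (adjusted p = 0.0002397) and 1.32 ± 0.20 under vehicle (adjusted p = 0.0009519). The type II receptor Acvr2a was higher by 0.87 and 0.77. Of 6 genes tested in the list of co-receptors and the inhibitory pseudoreceptor Bambi, 5 were lower under Dex, Bambi at -0.33 among them, against 12.1% of all genes. Under vehicle 2 were lower, against 10.2% of all genes, and Bambi was not among them. Rgma was lower by -1.14 under Dex and -1.04 under vehicle, and Rgmb by -1.28 and -0.84. Both belong to the repulsive guidance molecules that help BMPs bind their receptors.

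Of the 6 Smads of the BMP branch, all tested, 1 was lower in GR-C3 under each treatment. The share of all genes called lower was 12.1% under Dex and 10.2% under vehicle. The lower Smad was Smad6, an inhibitor induced by BMPs, by -1.18 ± 0.13 under Dex (adjusted p = 9.083e-05) and -0.95 ± 0.13 under vehicle (adjusted p = 0.0004118). With Dex and 11 arrays, 0 of the 6 were called in GR-C3 by limma, against 3.47% of all genes. In WT 2 rose and 1 fell, against 12.2% of all genes called: Smad1 rose by 1.02 ± 0.16 (adjusted p = 0.002789), Smad9 rose by 0.64 (adjusted p = 0.03563) and Smad5 changed by -0.31 (adjusted p = 0.04837). Of 14 genes widely described as BMP targets, Smad6 among them, 3 were higher and 4 lower in GR-C3 under Dex, against 17.5% and 12.1% of all genes, and 2 were higher and 2 lower under vehicle, against 14.6% and 10.2%. Dlx5, a skeletal transcription factor, was lower by -1.99 ± 0.20 under Dex (adjusted p = 5.204e-05) and -1.90 ± 0.20 under vehicle (adjusted p = 7.248e-05). The homeobox genes Msx1 and Msx2 were higher, Msx1 by 0.61 and 0.80 and Msx2 by 0.47 and 0.65, under Dex and under vehicle in that order. The median difference of the 14 targets was -0.02 under Dex and 0.05 under vehicle. With Dex and 11 arrays, limma called 0 of the 14 in GR-C3. In WT, 4 of the 14 rose and 0 fell in that fit, against 12.2% of all genes called, among them Id3 by 0.91 ± 0.12 (adjusted p = 0.001085). With 12 arrays, 0 of the 14 targets and 0 of the 6 Smads were called for Dex in either genotype. The share of all genes in that fit was 0.101% in GR-C3 and 0.12% in WT.

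**Figure D5:**
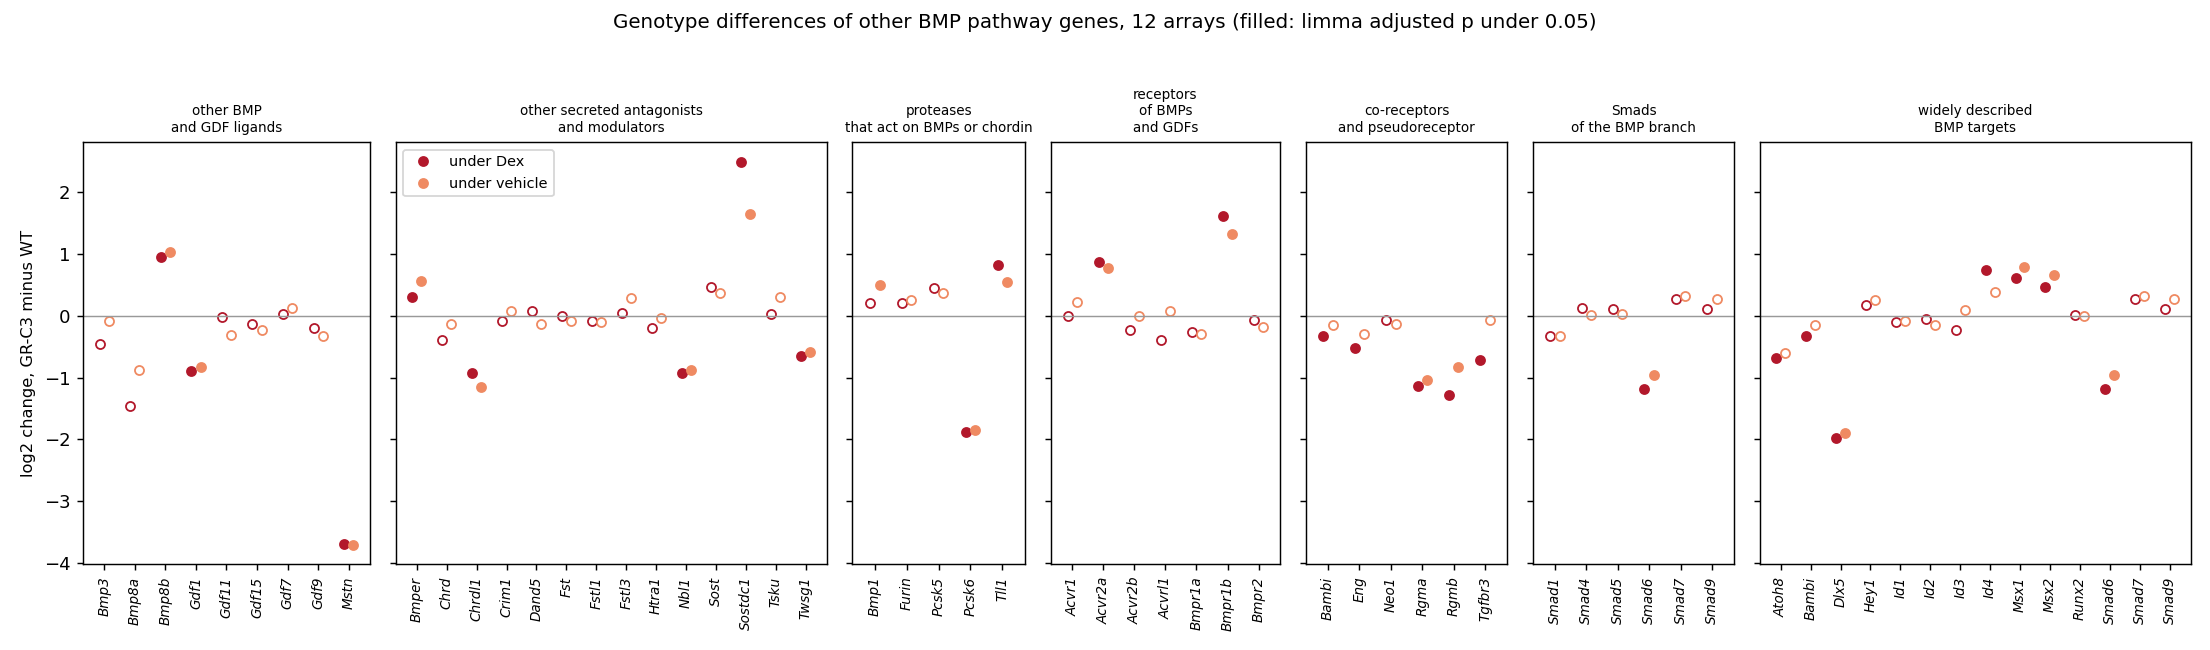
Log2 differences, GR-C3 minus WT, of the other BMP pathway genes with 12 arrays, by role, under Dex and under vehicle; each point is 1 gene, filled points have a limma adjusted p under 0.05, and 1 of the 15 antagonists is not shown. Of the genes shown, Mstn at -3.69 under Dex and -3.71 under vehicle is the lowest, and Sostdc1 at 2.49 under Dex is the highest.

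On the arrays' genome build, mm7, the main probes lie at chr14:31365575-31365634 for Gdf10, chr4:9789396-9789455 for Gdf6, chr9:75935778-75935837 for Bmp5 and chr2:113599308-113599367 for Grem1. Each is 60 bases long, and exons of mm7 were not analysed here. Bmp2, Bmp7, Gdf5 and Grem1 all have their main probes on chromosome 2, and Bmp4 and Gdf10 theirs on chromosome 14. The second probe of Bmp5 covers 11394 bases of the genome and that of Bmp6 15144 bases, far more than the probes' own length.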

How the data were processed

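The 10 genes and the pathway and marker lists were chosen with earlier results of these data known. Per the file headers, the authors deposited linear spot intensity readings, background-subtracted with Agilent Feature Extraction 9.5.3.1 (9.5 per the submitters' processing notes). The deposited series matrix held the same intensity values in all 12 columns within 1e-09, so it was linear and uncentred, and it served for this check alone. Of 45018 spots, 1639 control spots were left out, and spots with an outlier call were dropped. Spots of 1 probe were averaged, which gave 41174 probes. Genome build mm7 stands in the file headers.

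From these values, levels were computed as log2 processed signal after division by each array's 75th percentile. That percentile was 884 to 1821. Between 70.7 and 78.4% of an array's probes exceeded background clearly. Precision is limited by the 3 arrays per group. Probes had to be well above background throughout 1 or more groups (30934 were), and the brightest probe stood for its gene (20836 genes, named through a RefSeq table where it matched). Groups came from the labels. They were compared by limma 3.58.1 (R 4.3.3), with 1 coefficient per group and Benjamini-Hochberg adjustment over all genes at 0.05. Errors after ± are standard errors. Named genes were all 10 members, up to 4 called genes of each list per comparison by smallest p, and the 3 genes most correlated with each called member. One gene that this rule names is not reported here. Promoters were matched by symbol to RefSeq's GRCm38.p6 table.

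Alternatives were quantile normalization, normexp background correction (offset 50) with outlier local backgrounds replaced or as given, no filter or a stricter one, every probe alone, slide and replicate number as blocks, only the groups compared, and each array left out. Combinations with WT vehicle replicate 1 left out were chosen after seeing the data. Tested on simulated data for Dex in WT over 20711 genes, the 12-array fit recovered 16% of log2 changes of 0.5, 74% of 1 and 92% of 2, and the 11-array fit 26%, 66% and 90%. The simulated noise was independent between arrays, so no array stood apart as WT vehicle replicate 1 does. These shares may therefore be too high for Dex with 12 arrays. There, 0 of 7 known glucocorticoid-induced genes were called in WT, at a median change of 1.45.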

Additional observations from a re-analysis of the deposited data

How the results depend on the processing

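The Gdf10 genotype difference was called under all 21 alternatives of the 12-array fit for each treatment, Bmp5 under 20 of 21 and Grem1 under 19 of 21, each with 1 direction. The genotype difference of Bmp2 under vehicle was 0.0083 and 0.57 on the log2 scale with normexp correction (outlier local backgrounds replaced and as given), against -0.81 in the main setting, and the cause was not tested. The count of genes called, 21 for Dex in GR-C3, 25 for Dex in WT, 0 for the interaction, 6175 for genotype under Dex and 5160 under vehicle, moved as follows, and the cause was not tested. Quantile normalization gave 127 for Dex in GR-C3, 41 higher and 86 lower against 16 and 5, and for Dex in WT 15 higher and 15 lower against 8 and 17. Normexp on local backgrounds as given gave 0 for Dex in either genotype, 455 under Dex and 377 under vehicle. No filter on dim probes gave 10 for Dex in GR-C3 and 0 in WT, and every probe on its own gave 34 and 15. Slide as a block gave 317 for Dex in GR-C3, 1019 in WT, 36 for the interaction, 3240 under Dex and 1630 under vehicle. Fitting only the groups compared gave 692 for Dex in GR-C3 and 0 in WT. Leaving out 1 array at a time gave 2 to 722 for Dex in GR-C3, 0 to 2548 in WT, 0 to 237 for the interaction, 4001 to 8483 under Dex and 3241 to 5687 under vehicle, and the highest of each range is the fit without WT vehicle replicate 1. Deviations of same-numbered arrays from their group means correlated at -0.22 to 0.21, with 4 of 18 pairs over 0.1. Differently numbered arrays were not compared, so these values cannot decide whether replicate numbers pair the samples. The replicate block gave 10 genes for Dex in GR-C3, 0 in WT and 1 for the interaction. Bmp2 and the dimmer probes of Bmp5 and Bmp6 lie close to background, which limits what their changes can show.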
